A study of Mus musculus with 21 samples.

Results

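Cultured mouse CD8 T cells given 5 IU/mL of IL-2v, a mutant form of interleukin-2 (IL-2), were compared with the same kind of cells given 5 IU/mL of wild type IL-2, both on day 5. Both libraries were found by their labels, and every cell of each was taken. It held 4747 cells with IL-2v and 4703 with IL-2, or 9450 of the 106458 cells of the series. The series profiled single OT1 cells, which carry a transgenic T cell receptor for a peptide of ovalbumin. They were taken before activation and on days 3, 5 and 10 of culture with IL-15, IL-2 or IL-2v at 5 or 50 IU/mL. Cells cultured without cytokine were profiled on days 3 and 5 only. Naive cells had been activated on day 0 with beads that bind CD3 and CD28, so the transgenic receptor was not engaged by its peptide, and all day 5 groups share this activation. The treatment label of the variant reads mutant IL-2bg and gives no amino acid change. Each condition was 1 library from a culture of an unstated number of mice, so no replicate error can be given, no test between conditions could be run and every difference below compares these libraries. The extraction label describes sorting of CD44+CD45.1+ CD8 T cells from tumours, which does not match the culture described for these samples, and the culture description was followed.

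IL-2 signals through a receptor of up to 3 chains. The alpha chain (Il2ra, CD25) raises affinity, while the beta (Il2rb) and gamma (Il2rg) chains carry the signal to the kinases JAK1 and JAK3 and then to the transcription factor STAT5, whose targets include its own feedback inhibitors. In activated CD8 T cells this pathway is known for driving division, nutrient uptake and glycolysis, for cytotoxic differentiation, and for lowering the IL-7 receptor and other genes of resting memory cells.

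The libraries held 18428827 UMIs with IL-2v and 20044689 with IL-2, where a unique molecular identifier (UMI) marks 1 captured RNA molecule. Median depth was 3491 UMIs and 1378 genes per cell with IL-2v and 3942 UMIs and 1376 genes with IL-2. Ribosomal protein genes took 33.0% and 37.1% of UMIs, and mitochondrial genes 4.08% and 4.27%, respectively. All 7 T cell markers were present in both libraries, led by Cd3d with a UMI in 94.8% of IL-2v cells and 98.9% of IL-2 cells, and Cd8b1 in 82.2% and 85.0%. Cd4 was seen in 0.0421% and 0.0425% of cells, and Foxp3, Ms4a1, Pax5, Lyz2, Csf1r, Cd14, Ncr1 and Col1a1 had no UMI in either. Of the markers of other lineages that were seen, Pecam1 had a UMI in 12.6% and 15.7% of cells, Cd79b in 4.74% and 6.29%, Zbtb7b in 4.49% and 5.06%, Ighd in 3.29% and 3.55% and Itgam in 0.211% and 1.66%. The summed level of the 7 myeloid markers, of which 5 are in the tables, was 0.543 and 4.54 CPM (UMI counts scaled to a common library total). Itgam alone made up that sum, as the others had no UMI in either library. Summed levels were 22.7 and 26.7 CPM for the 6 B cell markers and 38.0 and 46.3 CPM for the 4 stromal or epithelial markers. The 7 T cell markers summed to 3752 and 4699 CPM. The libraries shared 5 cell barcodes, or 0.106% of the smaller library.

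UMIs were summed over the cells of a library and scaled to CPM, and a difference is IL-2v minus IL-2 in log2(CPM + 1), where the added 1 CPM shrinks differences of low genes. Intervals in parentheses after a CPM value or a share are 95% intervals that cover counting error only. With IL-2v, 414 of the 5676 genes with at least 20 CPM in either library were at least 2-fold higher (7.29%) and 58 were at least 2-fold lower (1.02%). Of the higher genes 55 differed at least 4-fold, against 7 of the lower genes. The median difference over all genes compared was 0.20 (10th to 90th percentile -0.32 to 0.85), and each list below is read against that median. Counts for a list are over its genes compared, and its median is over members whose mean reached 1 CPM. Scaling by TMM, the trimmed mean of gene ratios, which moved the median to -0.01, gave 284 higher and 96 lower genes, and the share of higher genes among all called went from 87.7% to 74.7%. A sum over cells cannot tell a change in every cell from a change in the share of cells of a kind, and cell shares are therefore given where depth allowed.

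**Figure D1:**
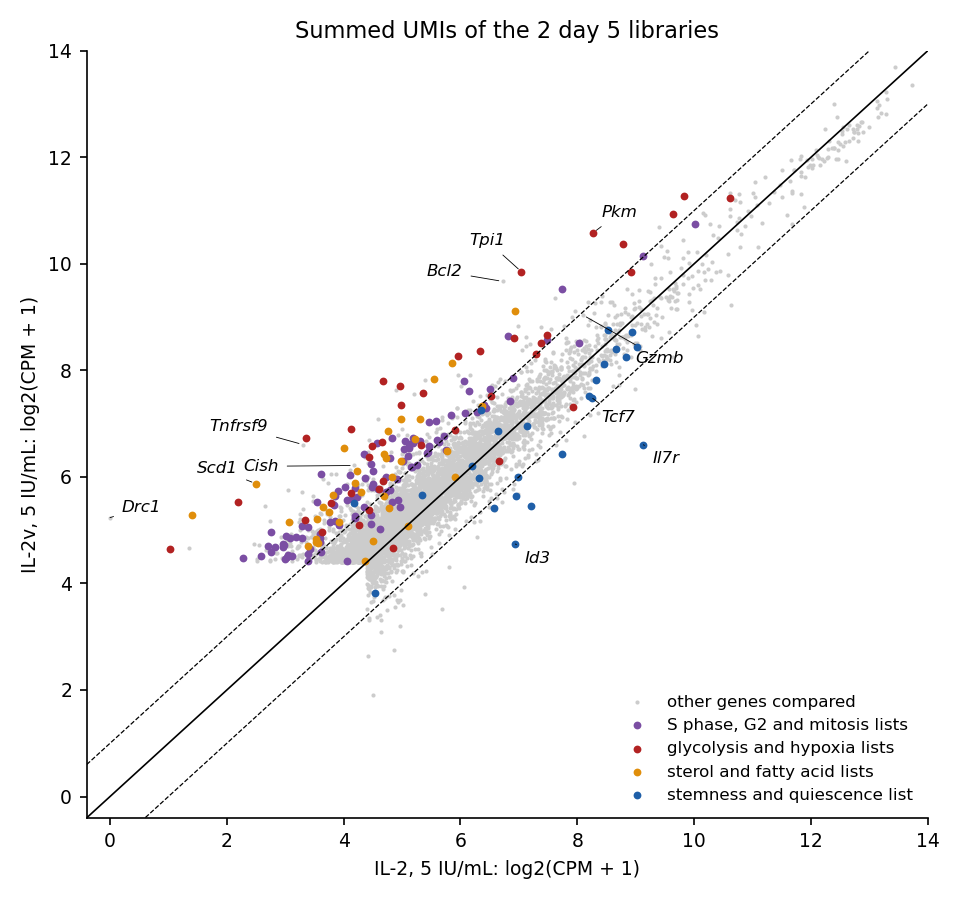
Levels of the 5676 genes compared, as log2(CPM + 1) of summed UMIs with 5 IU/mL IL-2 (horizontal) and 5 IU/mL IL-2v (vertical) on day 5; the solid line marks equal levels and the dashed lines a difference of 1 in log2, and colours mark gene lists. Glycolysis, hypoxia, sterol and cell cycle genes lie above the upper dashed line for the most part, and Il7r and Id3 lie below the lower one.

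The 12 highest differences among genes that reached 50 CPM in their higher library included those of Scd1, Slc16a3, Tnfrsf9, Bnip3, Bcl2, Tpi1, Ndrg1, Prelid2, Aldoc, Osbpl3 and Pgm1. They included glycolytic enzymes and a lactate exporter (Tpi1, Aldoc, Slc16a3), genes of the hypoxia response (Bnip3, Ndrg1), lipid genes (Scd1, Osbpl3), the survival gene Bcl2 and the costimulatory receptor Tnfrsf9 (4-1BB). The 12 lowest were Il7r, Id3, 1110008P14Rik, Ifitm3, Ifitm2, Ikzf2, Gzma, Ctla2a, Ifi213, Btg1, Klrd1 and Ctla4. Among these are the IL-7 receptor, the transcription factors Id3 and Ikzf2, the antiproliferative gene Btg1, the granzyme gene Gzma and the inhibitory receptor Ctla4. Of those not taken up again below, Prelid2 was at 198 CPM with IL-2v against 28.7 CPM with IL-2, Osbpl3 at 52.7 against 7.28 CPM and Pgm1 at 135 against 23.0 CPM. Ctla2a, a cathepsin inhibitor, was at 401 against 1077 CPM, Ifi213 at 28.4 against 76.6 CPM and 1110008P14Rik at 10.4 against 50.2 CPM. For some genes named here a near copy or an overlapping gene could take or give reads, so their levels are uncertain. Windows of 50 bases were shared with another gene for 67.4% of Pgk1, 70.7% of Eno1, 41.6% of Pgam1, 25.5% of Pkm, 36.1% of Ifitm2, 24.1% of Ctla2a, 41.7% of Il2rg, 51.5% of Hsp90aa1, 74.0% of Impdh2 and 57.1% of Bcl2a1b. Exons of a gene on the opposite strand covered 22.3% of Bnip3, 27.0% of 1110008P14Rik and 73.5% of Mt2, and strand use in counting is not given in the sources used here.

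**Figure D2:**
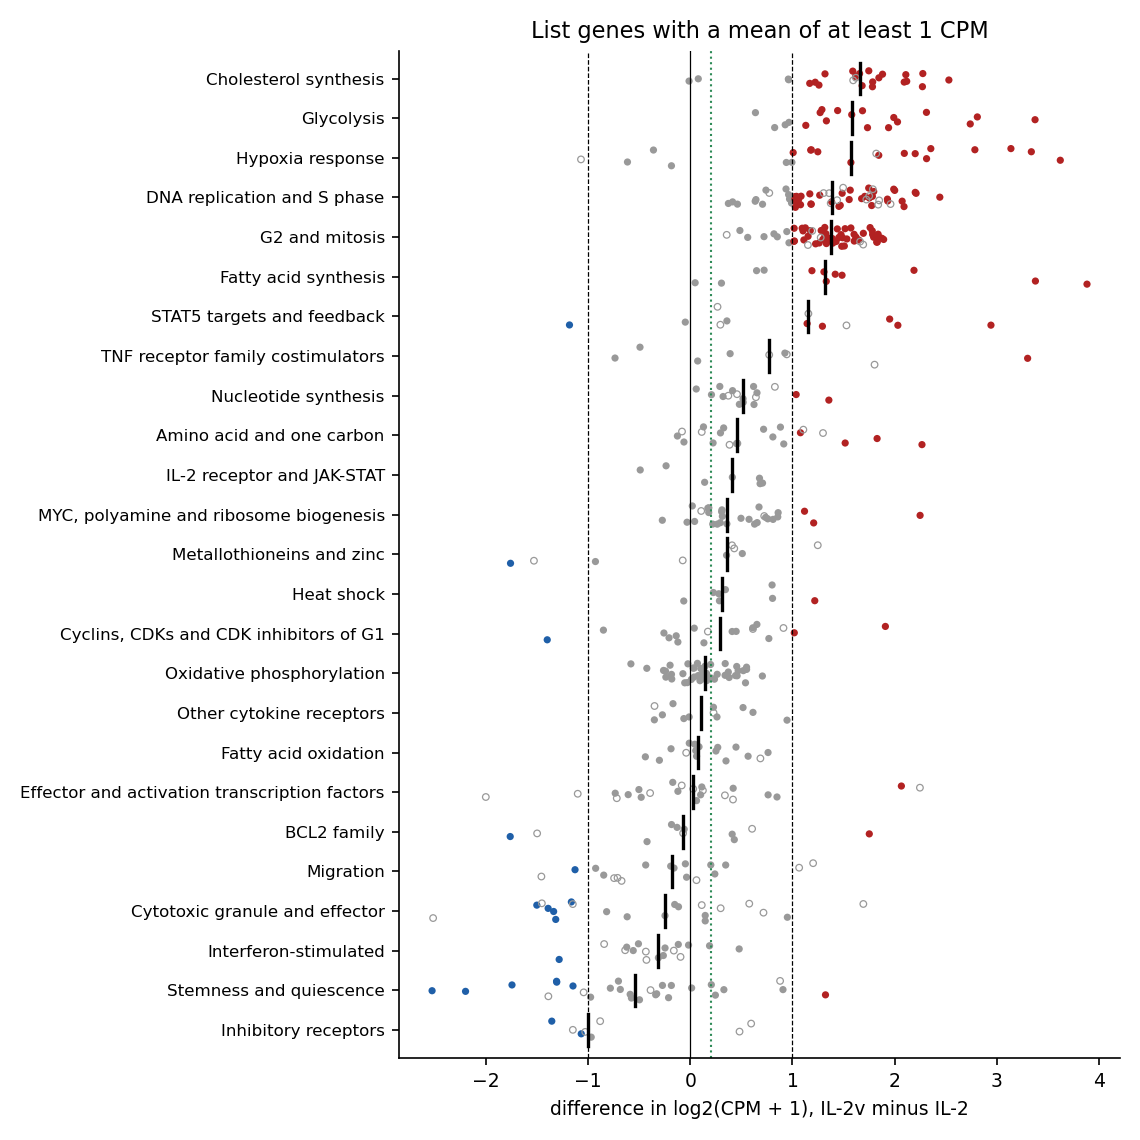
Differences in log2(CPM + 1), IL-2v minus IL-2, of the members of 25 gene lists with a mean of at least 1 CPM; filled points reached 20 CPM in either library, red and blue fills mark differences of at least 1 in size, open points are lower genes, black bars are list medians and the dotted line is the median of all genes compared. Cholesterol synthesis has a median of 1.66 and glycolysis 1.58, while inhibitory receptors have -0.999.

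The receptor chains differed by less than 2-fold in the summed libraries. Il2ra was at 126 CPM (121 to 132) against 78.3 CPM (74.4 to 82.2), a difference of 0.68; it was 1.02 in cells without and 0.11 in cells with a UMI of the proliferation genes Mki67 or Top2a. Il2rb was at 366 CPM (357 to 375) against 224 (217 to 230), a difference of 0.71, and Il2rg at 248 against 293 CPM, a difference of -0.24. Jak1 was at 358 against 503 CPM and Jak3 at 36.7 against 22.6 CPM. None of the 7 genes of the receptor and JAK-STAT list was called, and the median was 0.41.

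STAT5 targets were higher as a group, with 5 of 8 genes compared at least 2-fold higher, 1 lower and a median of 1.15. The median was 0.47 with a pseudocount of 10 CPM, and 0.66, with 3 of 8 higher, in cells with a Mki67 or Top2a UMI. Cish, a feedback inhibitor of cytokine receptors, was at 73.3 CPM (69.4 to 77.3) against 17.2 CPM (15.4 to 19.1), a difference of 2.03. Bcl2, which blocks cell death, was at 813 CPM (800.4 to 826) against 105 CPM, a difference of 2.94. A Bcl2 UMI was found in 76.9% of IL-2v cells and 17.0% of IL-2 cells after each cell was thinned to 2000 UMIs, and in 91.3% and 30.3% without thinning. The survival kinases followed, Pim2 with 241 against 61.5 CPM (1.95) and Pim1 with 358 against 146 CPM (1.29). Socs2 was at 75.7 against 33.7 CPM (1.14), while its relative Socs1 was at 156 against 162 CPM (-0.05). The cytokine gene Ltb went the other way, with 458 against 1042 CPM (-1.18). STAT5 is known to bind a dimer motif, spelled TTCNNNGAA here. The Cish promoter is shown because 2 matches, in capitals, lie side by side at its annotated start. The window runs from 250 bases before to 50 bases after the start (RefSeq, GRCm38.p6, chr9:107296409-107296708, plus strand).
Cish: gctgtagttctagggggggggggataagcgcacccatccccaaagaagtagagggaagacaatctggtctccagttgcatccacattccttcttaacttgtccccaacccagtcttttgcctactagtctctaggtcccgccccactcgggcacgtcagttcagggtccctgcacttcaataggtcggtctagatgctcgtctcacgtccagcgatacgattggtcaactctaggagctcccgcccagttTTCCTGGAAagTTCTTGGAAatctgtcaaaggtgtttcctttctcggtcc
Such a match on either strand was present in 4 of 11 promoters of the STAT5 list (36.4%) and in 8.30% of 32851 promoters of all genes. A match describes letters and not binding.

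More cells had proliferation transcripts with IL-2v. The share of cells with a UMI of Mki67 or Top2a, genes transcribed from S phase to mitosis, was 34.4% (33.0 to 35.8) with IL-2v and 12.6% (11.6 to 13.6) with IL-2 at 2000 UMIs per cell, and 39.8% and 18.7% without thinning. Defined instead by at least 3 UMIs of the G2 and mitosis list, the shares were 73.7% and 55.3%. Cells without a Mki67 or Top2a UMI had a median of 3 such UMIs in both libraries. That cut therefore does not mark proliferating cells alone. Thinning left out 235 IL-2v cells and 75 IL-2 cells. Summed Mki67 was at 398 against 112 CPM and Top2a at 740 against 212 CPM, a difference of 1.82 and 1.79. Cells with at least 2 markers of other lineages made up 0.274% and 0.659% of the libraries, too few to measure a share of cells with a UMI from free RNA in another cell type.

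Both parts of the cycle were higher. Of the S phase list, 35 of 47 genes compared were at least 2-fold higher and none was lower, with a median of 1.38. TMM scaling gave 22 of 43, and a pseudocount of 10 CPM 19 of 47 with a median of 0.85. The replicative helicase gene Mcm5 was at 64.7 CPM (61.1 to 68.5) against 16.2 CPM (14.5 to 18.1), the clamp gene Pcna at 222 against 65.5 CPM, the epigenetic copying factor Uhrf1 at 65.2 against 11.2 CPM and the nucleotide reductase Rrm1 at 85.4 against 19.3 CPM. Of the G2 and mitosis list 47 of 54 were higher and none lower, with a median of 1.38; Kif11, a spindle motor, was at 105 against 27.5 CPM and the kinase gene Plk1 at 54.3 against 17.2 CPM. Regulators of G1 showed no such common shift: 2 of 15 were higher and 1 was lower. Their median was 0.29 over 18 genes of at least 1 CPM and 0.13 over the 15 compared. TMM scaling gave 1 higher and 2 lower, with a median of 0.11. Cells lacking a Mki67 or Top2a UMI gave 1 higher and 1 lower of 12, with a median of 0.05. Cdk6, a kinase of G1, was at 119 against 30.9 CPM (1.91), while the cyclins Ccnd2 (533 against 586 CPM) and Ccnd3 (223 against 146 CPM) differed by less than 2-fold and Btg1 was at 601 against 1587 CPM (-1.40). E2F factors are known to drive S phase genes. The Mcm5 promoter (RefSeq, GRCm38.p6, chr8:75109259-75109558, plus strand) shows 2 overlapping matches to TTTNNCGC, 1 on each strand, in capitals.
Mcm5: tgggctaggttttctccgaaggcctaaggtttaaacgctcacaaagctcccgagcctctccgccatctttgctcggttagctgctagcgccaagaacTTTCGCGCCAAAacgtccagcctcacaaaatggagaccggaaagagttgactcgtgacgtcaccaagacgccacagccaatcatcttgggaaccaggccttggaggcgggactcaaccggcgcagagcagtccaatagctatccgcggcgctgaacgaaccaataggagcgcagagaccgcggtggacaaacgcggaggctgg
The motif was present in 22 of 53 promoters of the S phase list (41.5%) and in 5.17% of all promoters.

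Cells were also split, without thinning, by a Mki67 or Top2a UMI, which is itself a measure of the cycle, so values of cycle genes within a class are a description. In cells that had one, 312 of all 5842 genes compared were at least 2-fold higher (5.34%) and 61 lower (1.04%). Of the S phase list 21 of 52 were higher in these cells, with a median of 0.94, and of the G2 and mitosis list 3 of 59, with a median of 0.54. In cells without one, 239 of 5395 genes were higher (4.43%) and 40 lower (0.741%), 2 of 19 S phase genes were higher, with a median of 0.40, and 1 of 9 G2 and mitosis genes, with a median of 0.76.

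Glycolysis was higher along nearly its whole length with IL-2v. Of the 19 genes of the list, all compared, 15 were at least 2-fold higher, none was lower and the median was 1.58. The glucose transporter Slc2a1 (GLUT1) was at 44.8 CPM (41.8 to 48.0) against 12.8 CPM (11.3 to 14.4). Hk2, the first enzyme, was at 82.3 against 20.7 CPM (1.94) and Pfkp at 327 against 79.5 CPM (2.03). Tpi1 was at 923 CPM (909 to 937) against 131 CPM (126 to 136), a difference of 2.81. Pkm, which makes pyruvate, was at 1531 against 308 CPM (2.31), and Ldha, which turns it into lactate, at 1316 against 440 CPM (1.58). The lactate exporter Slc16a3 (MCT4) was at 106 CPM (101 to 110) against 9.28 CPM (7.99 to 10.7), a difference of 3.37. Between these steps, Aldoa was at 2459 against 904 CPM (1.44), Aldoc at 208 against 30.2 CPM (2.74), Pgk1 at 1956 against 800.4 CPM (1.29) and Eno1 at 363 against 165 CPM (1.13). The 4 genes under 2-fold were Slc2a3 (0.97), Gpi1 (0.93), Slc16a1 (0.83) and Gapdh, which was at 2426 against 1559 CPM (0.64).

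The higher level of glycolysis genes was spread over the cells. At 2000 UMIs per cell the list gave a median of 28 UMIs with IL-2v and 9 with IL-2, and the 10th percentile with IL-2v (13) equalled the 75th percentile with IL-2. The mean was 27.3 ± 10.2 (SD over cells) against 10.2 ± 4.91. Cells with and without a Mki67 or Top2a UMI had nearly the same values, with means of 27.7 and 27.0 (IL-2v library) against 10.8 and 10.1 (IL-2 library). The median difference of the list was 1.49 within the former cells and 1.55 within the latter, near the 1.58 of all cells.

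**Figure D3:**
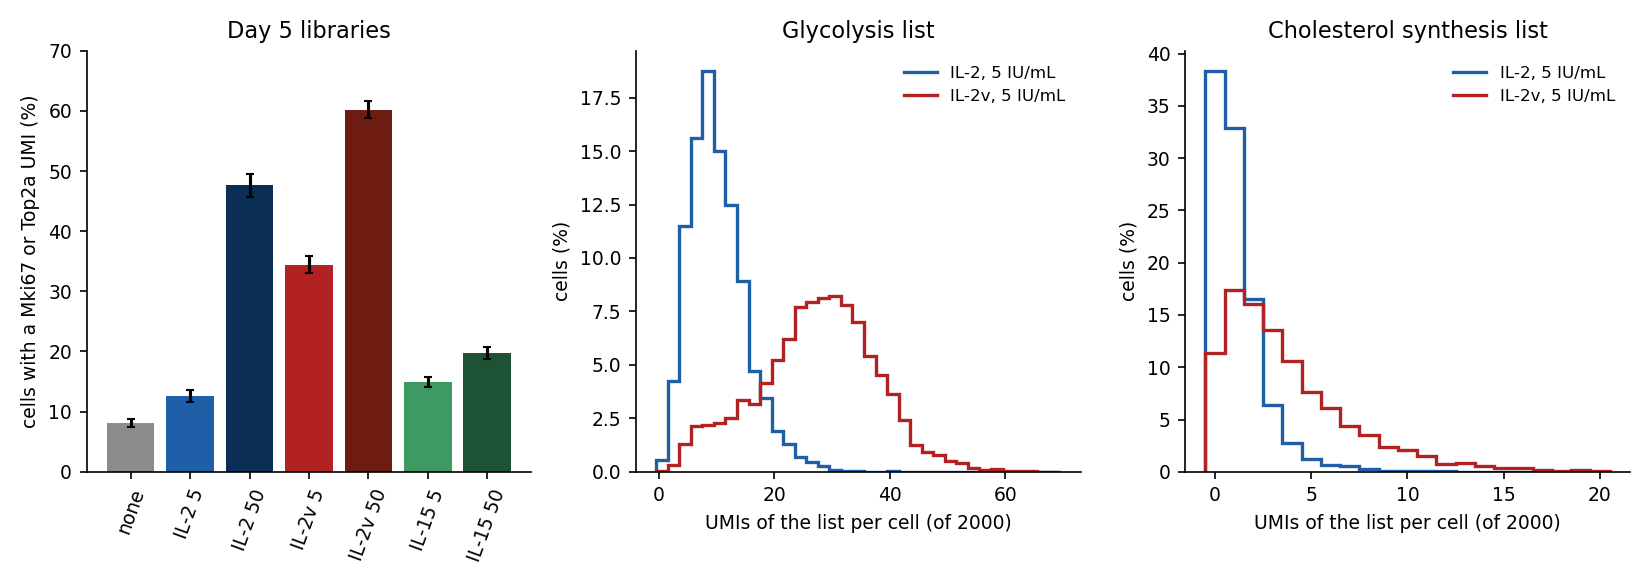
Left, percent of cells with a Mki67 or Top2a UMI at 2000 UMIs per cell in the 7 day 5 libraries, named by cytokine and dose in IU/mL, with exact 95% binomial intervals for counting error; middle and right, percent of cells by UMIs of the glycolysis and cholesterol synthesis lists per 2000 UMIs with 5 IU/mL IL-2 (blue) and IL-2v (red). The IL-2v bar stands at 34.4% against 12.6%. The glycolysis curve has a median of 28 UMIs with IL-2v and 9 with IL-2, is wider with IL-2v and overlaps that of IL-2.

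Genes of the hypoxia response were higher together with glycolysis: 14 of 19 compared were at least 2-fold higher, none was lower and the median was 1.57. The mitophagy gene Bnip3 was at 223 CPM (216 to 229.9) against 24.4 CPM (22.3 to 26.7), a difference of 3.14, and had a UMI in 34.2% of IL-2v cells and 4.60% of IL-2 cells at 2000 UMIs (50.1% and 8.95% without thinning). The adenylate kinase Ak4 was at 24.2 against 1.05 CPM (3.62), the collagen hydroxylase P4ha2 at 44.9 against 3.54 CPM (3.34) and Ndrg1 at 119 against 16.4 CPM (2.79). The oxygen sensor gene Egln1 was at 161 against 30.8 CPM (2.35). Hif1a itself, the transcription factor of this response, was at 159 against 244 CPM (-0.61). Ddit4 (78.0 against 100.5 CPM) and Nrn1 (24.4 against 27.9 CPM) also had values below those with IL-2, by less than 2-fold. The core of the hypoxia response motif is ACGTG. The Bnip3 promoter (RefSeq, GRCm38.p6, chr7:138909457-138909756, minus strand) holds it in a palindrome that counts as a match on each strand, in capitals.
Bnip3: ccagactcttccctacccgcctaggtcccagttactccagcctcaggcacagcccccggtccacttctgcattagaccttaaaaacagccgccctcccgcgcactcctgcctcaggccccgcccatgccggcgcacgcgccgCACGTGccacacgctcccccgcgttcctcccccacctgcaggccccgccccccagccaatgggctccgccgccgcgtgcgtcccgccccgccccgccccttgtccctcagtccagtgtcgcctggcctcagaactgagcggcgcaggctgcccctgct
It was present in 15 of 27 promoters of the glycolysis list (55.6%), in 16 of 27 of the hypoxia list (59.3%) and in 19.6% of all promoters.

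Sterol synthesis had a list median of 1.66, and 19 of 23 genes compared were at least 2-fold higher, with none lower. Hmgcs1, which commits acetyl groups to the mevalonate pathway, was at 227 CPM (219.8 to 234) against 46.0 CPM (43.1 to 49.1), a difference of 2.28. Fdps, which joins isoprenoid units, was at 279.7 against 57.1 CPM (2.27). Idi1, which makes an isoprenoid unit, was at 116 against 25.9 CPM (2.12) and Cyp51 at 135 against 30.5 CPM (2.11). The regulator gene Srebf2 was at 160.3 against 81.8 CPM (0.96), and Ebp and Ggps1 differed by 0.08 and -0.01. The median was 1.32 in cells with a Mki67 or Top2a UMI and 1.55 in the others. The Hmgcs1 promoter (RefSeq, GRCm38.p6, chr13:119690101-119690400, plus strand) holds the single match to the sterol response motif TCACNCCAC found among 21 promoters of the list, in capitals.
Hmgcs1: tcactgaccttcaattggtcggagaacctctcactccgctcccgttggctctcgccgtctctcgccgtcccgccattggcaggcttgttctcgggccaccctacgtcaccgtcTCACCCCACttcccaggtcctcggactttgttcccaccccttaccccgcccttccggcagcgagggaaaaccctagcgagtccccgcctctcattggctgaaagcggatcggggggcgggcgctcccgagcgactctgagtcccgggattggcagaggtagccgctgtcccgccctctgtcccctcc
That share is 4.76% and rests on 1 promoter, and 1.24% of all promoters held the motif. In the glycolysis list it was present in 2 of 27 promoters (7.41%).

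Fatty acid synthesis was higher in 8 of 12 genes, with a median of 1.32. It was 8 of 11 with a median of 1.31 in cells with a Mki67 or Top2a UMI, and 4 of 9 with a median of 0.87 in the others. The desaturase Scd1 was at 57.6 CPM (54.2 to 61.2) against 4.64 CPM (3.74 to 5.68), a difference of 3.38, and its paralog Scd2 at 554 against 121 CPM (2.19). Fads2 was at 38.0 against 1.65 CPM (3.88), Fasn at 78.2 against 30.5 CPM (1.33) and Acly at 104 against 36.4 CPM (1.49). Fatty acid oxidation, the opposing pathway, had no called gene among 14, and its median of 0.07 became -0.12 with TMM scaling. Cpt1a, which admits fatty acids to mitochondria, was at 17.7 against 22.1 CPM.

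Mitochondrial respiration genes lay near the median of all genes. None of 47 genes of oxidative phosphorylation was called, and the median of 0.14 became -0.05 with TMM scaling. The largest differences were those of Sdhc (0.71) and Uqcrh (-0.58). Of the amino acid and one carbon genes 4 of 15 were at least 2-fold higher, and the median was 0.46 over 21 genes of at least 1 CPM and 0.72 over the 15 compared. Among the higher genes were the folate enzyme Mthfd1l (65.5 against 12.8 CPM), the serine enzyme Psat1 (45.8 against 15.4 CPM) and the amino acid transporter Slc7a5 (29.3 against 7.53 CPM). Nucleotide synthesis had 2 of 13 higher and a median of 0.52, or 1 of 12 and 0.32 with TMM scaling. Myc was at 209 against 95.6 CPM (1.12) and the transferrin receptor Tfrc at 102 against 20.7 CPM (2.25), while the whole list of MYC targets and ribosome biogenesis had 3 of 27 and a median of 0.36. Of 8 heat shock genes 1 was higher, Hsp90aa1 (436 against 187 CPM), and the median was 0.31. None was called among cells lacking a Mki67 or Top2a UMI, where Hsp90aa1 differed by 0.94, against 1.08 in cells with one.

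Genes of stemness and quiescence did not differ as 1 block. Of 24 compared, 6 were at least 2-fold lower, 1 was higher and the median was -0.54. Il7r was at 96.3 CPM (91.8 to 101) against 559.8 CPM (549 to 570.3), a difference of -2.53. Id3 was at 25.7 CPM against 122 CPM (-2.20), Ikzf2 at 43.0 against 147 CPM (-1.75), Cxcr3 at 48.9 against 123 CPM (-1.31), Cd7 at 85.0 against 212 CPM (-1.31) and Slamf6 at 41.9 against 94.2 CPM (-1.15). The central regulators of the stem-like state differed less. Tcf7 was at 183 CPM (177 to 189) against 295 CPM (287 to 302), a difference of -0.68, and Lef1 at 225 against 318 CPM (-0.50). The egress genes S1pr1 (278 against 352 CPM) and Klf2 (335 against 405 CPM) and the homing receptor Ccr7 (122 against 139 CPM) also differed by less than 2-fold. Dapl1 was at 152 against 80.3 CPM (0.91) and Nsg2 at 44.4 against 17.2 CPM (1.32). The list median was -0.58 in cells with a Mki67 or Top2a UMI and -0.37 in the others.

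Shares of cells were compared within each class of cells at 2000 UMIs. The class with a Mki67 or Top2a UMI differed between the libraries. Its median of UMIs of the G2 and mitosis list was 35 with IL-2v and 15 with IL-2, against 3 outside it with either. Shares within it therefore do not compare like cells. Among cells with a Mki67 or Top2a UMI, 23.9% (21.8 to 26.1) of IL-2v cells and 30.2% (26.5 to 34.2) of IL-2 cells had a Tcf7 UMI, and in the others 31.0% and 41.9%. For Il7r these shares were 12.6% and 50.2%, and 18.9% and 61.4%. As more cells of the IL-2v library carried a Mki67 or Top2a UMI, cells with such a UMI and a Tcf7 UMI made up 8.22% (7.44 to 9.06) of it, against 3.80% (3.27 to 4.39) with IL-2. The corresponding shares were 9.57% and 4.62% for Lef1, and 4.32% and 6.31% for Il7r. Median depth before thinning was 3491 and 3942 UMIs.

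**Figure D4:**
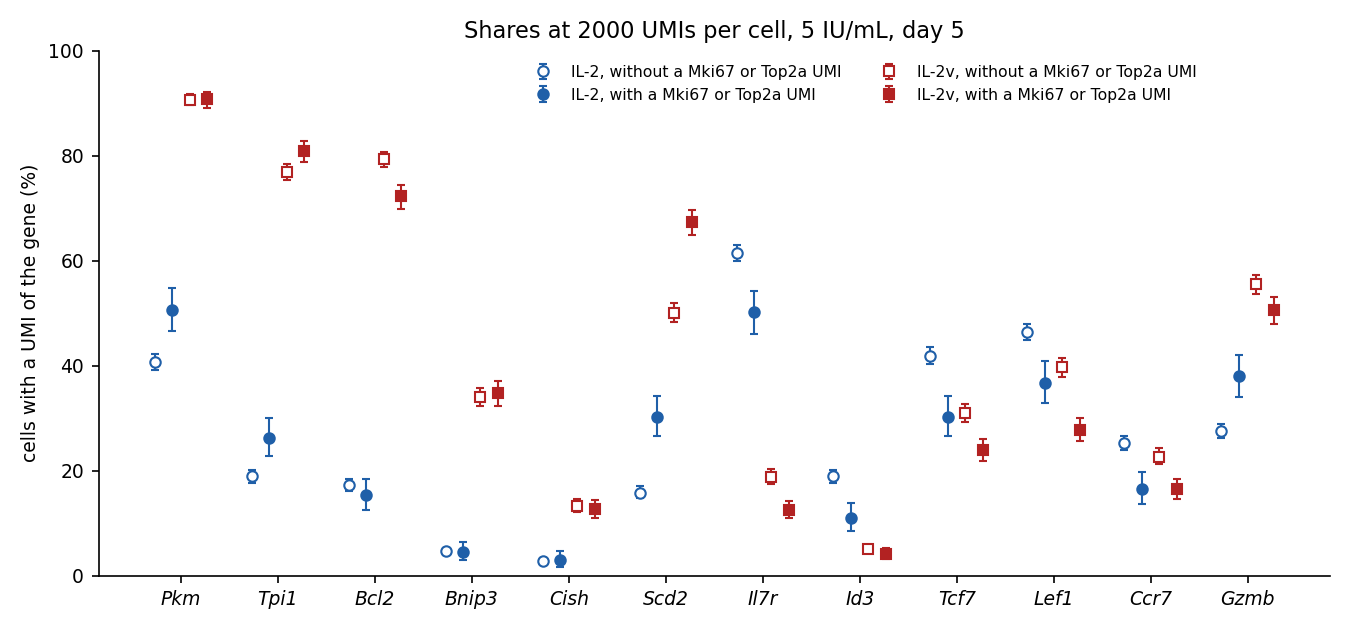
Percent of cells with a UMI of the gene at 2000 UMIs per cell on day 5, for 5 IU/mL IL-2 (blue circles) and IL-2v (red squares), in cells with (filled) and without (open) a Mki67 or Top2a UMI; bars are exact 95% binomial intervals for counting error. Pkm, Tpi1 and Bcl2 differ between cytokines in both classes, and Tcf7 is lower in cells with a Mki67 or Top2a UMI with either cytokine.

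Among cytotoxic and effector genes, the granzyme gene Gzmb was at 526 CPM (515 to 536) against 272 CPM (265 to 279), a difference of 0.95 that was 1.25 in cells without and 0.36 in cells with a Mki67 or Top2a UMI. A Gzmb UMI was found in 53.8% and 28.8% of cells at 2000 UMIs, and in 69.1% and 43.1% without thinning. Gzma was at 18.8 against 55.2 CPM (-1.50) and Gzmc at 10.9 against 28.5 CPM (-1.32). The chemokine Ccl5 was at 199 against 505 CPM (-1.34), and the lectin receptors Klrd1 and Klrk1 at 302 against 795 CPM and 35.1 against 79.9 CPM (-1.39 and -1.16). Of the 13 genes of the list compared, 5 were lower and none higher; the list median was -0.25 over 21 genes of at least 1 CPM and -0.62 over the 13 compared. The count was 3 lower with a pseudocount of 10 CPM, 4 lower and 1 higher without cells above 2 times the median UMIs, 5 lower and 1 higher with the mean CPM of single cells, and 3 lower and 1 higher among cells lacking a Mki67 or Top2a UMI. Nkg7 was at 586 against 529.6 CPM. Of 13 effector and activation transcription factors 1 was called: Eomes, known in effector and memory CD8 T cells, was at 34.7 CPM (32.1 to 37.5) against 7.53 CPM (6.38 to 8.84), a difference of 2.07. Its relative Tbx21 was at 15.2 against 22.0 CPM (-0.50). The median of that list was 0.03 and became -0.12 with TMM scaling.

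Of 10 inhibitory receptors 3 reached 20 CPM and could be compared, and 2 of them were at least 2-fold lower. With a pseudocount of 10 CPM this was 1 of 3, and the list median went from -0.999 to -0.30. TMM scaling gave 3 of 3 lower with a median of -1.15, and totals without ribosomal and mitochondrial genes 3 of 5. Ctla4 was at 108 against 277 CPM (-1.36), Cd160 at 34.7 against 73.9 CPM (-1.07) and Lag3 at 22.4 against 44.8 CPM (-0.97). Pdcd1 (PD-1) was at 1.52 against 4.59 CPM. Of the TNF receptor family costimulators and their kin 1 of 6 was called: Tnfrsf9 was at 96.4 CPM (92.0 to 101) against 8.88 CPM (7.62 to 10.3), a difference of 3.30. Among cells lacking a Mki67 or Top2a UMI 3 of 7 were higher, and among cells with one 2 of 6. Tnfrsf18 (GITR) was at 202 against 154 CPM. Icos (44.4 against 74.7 CPM) and Cd28 (96.0 against 135 CPM) had lower values by less than 2-fold, and the list median was 0.77 over genes of at least 1 CPM, 0.23 over the 6 compared and 0.37 with a pseudocount of 10 CPM.

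Of 8 genes of the BCL2 family list compared, 1 was higher and 1 lower. Bcl2 itself, with a difference of 2.94, was counted in the STAT5 list and not in this one. Bcl2l1 (BCL-XL) was at 30.9 against 8.48 CPM (1.75) and Bcl2a1b at 5.26 against 20.3 CPM (-1.76). Bcl2a1b lay just above the 20 CPM filter, and no member was called lower without cells above 2 times the median UMIs, with the mean CPM of single cells, with a pseudocount of 10 CPM, with a filter of 50 CPM or among cells lacking a Mki67 or Top2a UMI. Mcl1 was at 165 against 222 CPM (-0.42) and the opposing gene Bcl2l11 (BIM) at 107 against 79.2 CPM (0.43). Of the metallothioneins, which bind zinc, Mt1 was at 54.0 against 104 CPM (-0.93), short of a call, and Mt2, whose reads may come from the opposite strand, at 8.19 against 30.1 CPM (-1.76). The median of the metallothionein and zinc list had opposite signs over genes of at least 1 CPM (0.35) and over the 4 compared (-0.29). Other cytokine receptors had no call among 10 genes (1 higher among cells lacking a Mki67 or Top2a UMI, with the mean CPM of single cells, or without cells above 2 times the median UMIs), and the median of 0.11 became -0.08 with TMM scaling; Il18rap was at 48.6 against 24.7 CPM (0.95). Of 11 migration genes 1 was lower, the chemokine receptor Ccr2 (53.6 against 118 CPM, -1.13); TMM scaling gave 3 lower of 11, totals without ribosomal and mitochondrial genes 3 of 14, and cells lacking a Mki67 or Top2a UMI 0 of 11. Of 11 interferon-stimulated genes 1 was lower, Ifit1bl1 (11.8 against 30.2 CPM, -1.28), and the median was -0.31. That call was lost with a pseudocount of 10 CPM and with a filter of 50 CPM. Outside these lists Ifitm3 was at 14.3 against 66.0 CPM (-2.13) and Ifitm2 at 57.9 against 244 CPM (-2.06).

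The levels with 5 IU/mL IL-2v were then set beside the other day 5 libraries. Among these, the 50 IU/mL IL-2 library had the fewest cells (3250) and the lowest median depth (3016 UMIs). The summed glycolysis list was at 13422 CPM with 5 IU/mL IL-2v, 5213 with 5 IU/mL IL-2 and 20207 at the higher IL-2 dose, and the hypoxia list at 2587, 1105 and 4806 CPM. Some single genes, chosen after their values were seen, lay near their level with 50 IU/mL IL-2: Aldoc was at 208 and 211 CPM, Pim1 at 358 and 330.1, Il2rb at 366 and 374, and Mki67 at 398 and 430.2 CPM. Other levels lay above 50 IU/mL IL-2. Bcl2 was at 813 and 449 CPM, Hmgcs1 at 227 and 159, Lef1 at 225 and 171 and Tcf7 at 183 and 69.4 CPM. Further genes lay far below 50 IU/mL IL-2: Gzmb was at 526 and 1689 CPM, Tnfrsf9 at 96.4 and 582, Ero1l at 189 and 782, Bhlhe40 at 35.7 and 318 and Mt1 at 54.0 and 761 CPM. For Ifitm2, Gzma, Ctla4 and Mt1 both IL-2 libraries were above the 5 IU/mL IL-2v library, with 50 IU/mL highest; Ifitm2 was at 57.9 CPM in the former and at 244 and 641 CPM in the latter. For Il7r, Id3 and Ltb the library without cytokine was highest, with 699.8, 224 and 1820.1 CPM. The share of cells with a Mki67 or Top2a UMI was 8.10% without cytokine, 47.6% with 50 IU/mL IL-2, 60.2% with 50 IU/mL IL-2v, and 14.9% and 19.7% with 5 and 50 IU/mL IL-15.

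**Figure D5:**
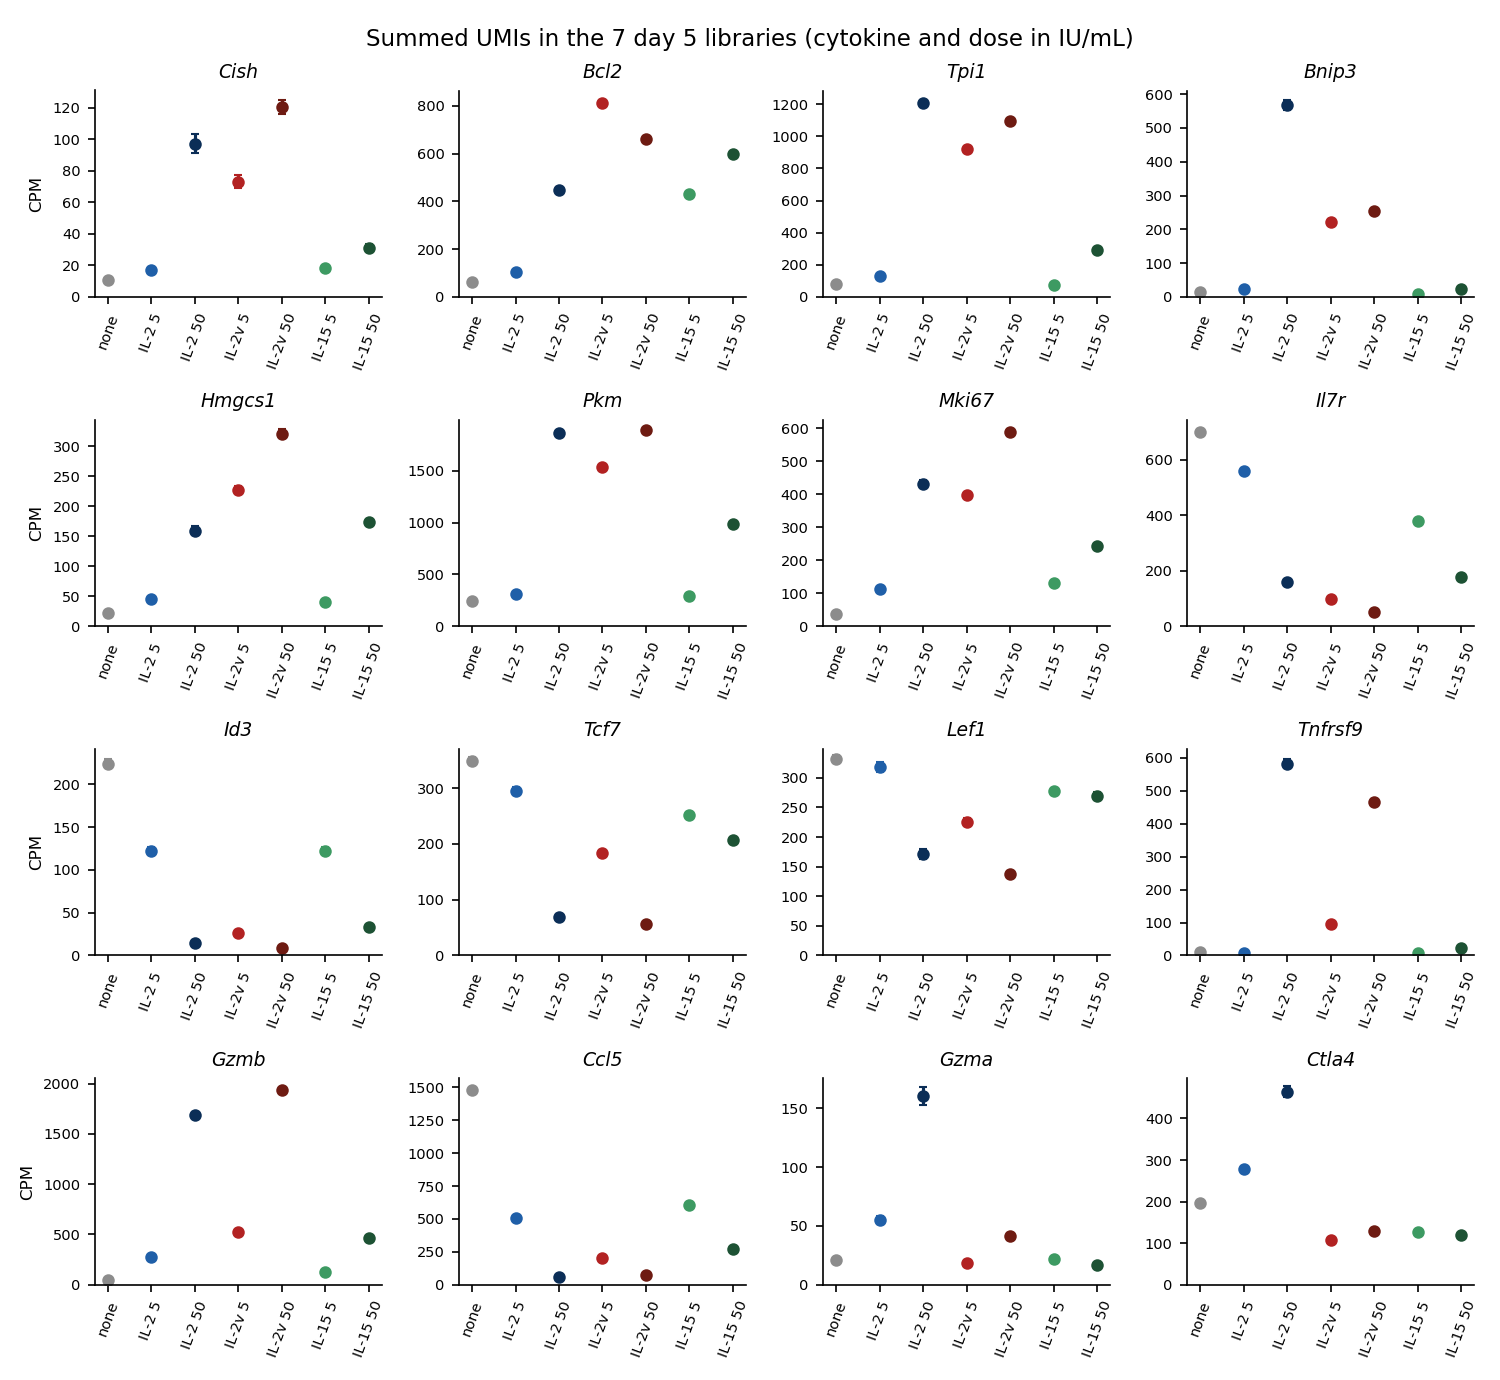
CPM of summed UMIs of 16 genes in the 7 day 5 libraries, named by cytokine and dose in IU/mL, with exact 95% Poisson intervals for counting error, often smaller than the point; each panel starts at 0. The 5 IU/mL IL-2v point lies near 50 IU/mL IL-2 for Mki67, above it for Bcl2, Hmgcs1, Lef1 and Tcf7, and far below it for Tnfrsf9, Gzmb and Gzma.

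The same contrast in pairs of other libraries placed the day 5 difference in time. On day 3 at 5 IU/mL, 2 of 5774 genes were at least 2-fold higher with IL-2v (0.0346%) and 3 lower (0.052%). The glycolysis and sterol medians were 0.06 and 0.21 in that pair. The STAT5 target median was 0.53 and that of the MYC and ribosome biogenesis list 0.47, against 0.01 over all genes compared. On day 10 at 5 IU/mL, 402 of 5932 genes were higher (6.78%) and 459 lower (7.74%). Of the 414 genes higher on day 5, 364 could be compared on day 10, where 170 were higher (46.7%) and 19 lower (5.22%); of the 58 lower genes 47 could be compared and 40 were lower (85.1%), with none higher. The lists parted between the days: the sterol median was 1.66 on day 5 and 1.82 on day 10, the S phase median 1.38 and 1.26, but the glycolysis median was 1.58 and -0.78 and the STAT5 target median 1.15 and -1.18. Bnip3 differed by -2.22 and Slc16a3 by -2.50 on day 10. The glycolysis median of the day 5 pair at 50 IU/mL was -0.24. On day 5 at 50 IU/mL, 357 of 6227 genes were higher (5.73%) and 129 lower (2.07%), and 52 of the 407 comparable higher genes (12.8%) were higher there too and 15 lower (3.69%); of 42 comparable lower genes 14 were lower (33.3%) and 1 higher. The remaining pairs were at 50 IU/mL: on day 3, 75 of 6152 genes were higher (1.22%) and 129 lower (2.1%), with 7 of the 393 comparable higher genes higher and 30 lower, and 6 of 34 comparable lower genes higher and 7 lower. On day 10 at that dose, 145 of 5227 were higher (2.77%) and 113 lower (2.16%), with 57 of 280 higher genes higher and 10 lower, and 4 of 37 lower genes higher and 7 lower. Whether differences changed between days or doses was not tested, since each pair has 1 library per arm.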

How the data were processed

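Single-cell RNA of OT1 CD8 T cells was measured, 1 library per condition, and the authors deposited whole-number UMI counts per gene and cell for each library. The submitters' processing notes name Cell Ranger, Seurat 4.0.1 and 3.0.2 and the build mm10, without roles. A minimum of 1000 UMIs and 500 genes per cell and a mitochondrial maximum of 10% removed none of the 9450 cells. Counts were summed per library, scaled to CPM and compared as log2(CPM + 1) for genes of at least 20 CPM in either library. A call is a difference of at least 1 in log2 and carries no test, since each condition has 1 library. Doublets were not called; leaving out cells above 2 times the median UMIs was an alternative. For shares of cells and sums per cell, each cell was thinned to 2000 UMIs. Intervals are exact Poisson or Clopper-Pearson 95% intervals, for counting error only. Named genes are the 12 highest and 12 lowest of the 2835 genes with 50 CPM in the higher library, and members of 25 lists with 555 genes, of which 553 are in the tables. The comparison, members and lists were chosen with earlier results of these data known. Some genes that this rule names are not reported here. List medians cover members whose mean reached 1 CPM. In the treatment labels the 50 IU/mL libraries of IL-2 and IL-15 name other interleukins (3 and 16), and the titles were followed. Near copies and overlaps came from the GENCODE annotation of mm10 and promoters from RefSeq. Python 3.11.15, numpy 2.4.6, pandas 2.3.3, scipy 1.17.1, matplotlib 3.10.9 and, for TMM alone, edgeR 4.0.16 in R 4.3.3 were used, and the fold calculation was tested on simulated data.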

Additional observations from a re-analysis of the deposited data

Results flagged for a closer look

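These results stand out because the difference between IL-2v and IL-2 on day 5 pointed one way at 5 IU/mL and the other way at 50 IU/mL; the difference between doses was not tested, since each dose has 1 library per cytokine. The median log2 difference of the hypoxia list was 1.57 at 5 IU/mL and -0.58 at 50 IU/mL. Single genes were picked for this pattern, with both differences at least 1 in size and opposite in sign, so they add no support to the median. In the hypoxia list Bnip3 differed by 3.14 and -1.16, Ndrg1 by 2.79 and -1.69 and Ero1l by 2.20 and -1.16. P4ha2 differed by 3.34 and -1.13, Mxi1 by 1.18 and -2.44 and Ak4 by 3.62 and -1.84. The other genes of that list did not meet this cut. In levels, Bnip3 was at 223 CPM with IL-2v against 24.4 CPM with IL-2 at the lower dose, and at 254 against 568 CPM at the higher dose. The median of the TNF receptor family costimulators was 0.77 and -0.59. At 5 IU/mL that median was smaller, at 0.23, over the 6 genes compared, and 0.37 with a pseudocount of 10 CPM. Cxcr3, a chemokine receptor, went the other way, with -1.31 at 5 IU/mL and 1.08 at 50 IU/mL.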

How the results depend on the processing

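The comparison has 1 library per condition, so counting intervals cover neither culture nor library differences. No paired analysis was possible because each condition has 1 library, and no replicate could be left out. The counts of genes at least 2-fold higher and lower, 414 and 58, depended on scaling, pseudocount, filter and cells. TMM gave 284 and 96, totals that left out mitochondrial and ribosomal protein genes 447 and 103, a pseudocount of 10 CPM 253 and 30, no expression filter 781 and 152, and a filter of 50 CPM 215 and 34. Cells without a Mki67 or Top2a UMI gave 239 and 40, and cells with one 312 and 61. All barcodes gave 414 and 58, at most 5% mitochondrial UMIs 410 and 57, and mean CPM of single cells 392 and 56. Without cells above 2 times the median UMIs the counts were 443 and 58, and without cells carrying markers of other lineages 418 and 57. TMM lowered every IL-2v level relative to IL-2, so its 284 higher genes had to lie among the 414. That overlap is no check of the calls. The share of cells with a Mki67 or Top2a UMI was 26.9% with IL-2v and 8.89% with IL-2 at 1000 UMIs. It was 39.8% and 18.7% without thinning, and 31.7% and 10.3% without cells above 2 times the median UMIs. Defined by at least 3 UMIs of the G2 and mitosis list, the shares were 73.7% and 55.3%. Cells without a Mki67 or Top2a UMI reached that cut at their median. Signs of single genes were checked for 186 genes, those of the naming rule and the called members of the lists. The remaining called genes were not checked. Where cells with a Mki67 or Top2a UMI were left out, 4 of the genes checked had the opposite sign: Tyms (-0.032), Kif23 (-0.11), Prc1 (-0.14) and Rbl1 (-0.15). The cause was not tested. Of 300 alternative values of list medians, 231 moved by no more than the median counting error of single member genes of the list. That limit is not the counting error of a list median. None of the list medians above 0.5 in size changed sign. Of 2232 values of the 186 genes checked, 1513 lay within counting error. All 48 alternative values of 24 shares of cells with a UMI, at 1000 UMIs or without thinning, lay outside it. Some of the unmoved values were fixed in advance. All barcodes are the same cells, and a changed expression filter leaves the difference of a single gene as it was. Such values are counted among the 1513, and the list medians of all barcodes among the 231.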

Other observations

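Drc1, which encodes a part of the ciliary dynein regulatory complex, was chosen here after its values were seen and lies in no list. On day 5 at 5 IU/mL it had 676 UMIs with IL-2v (36.7 CPM, a UMI in 12.2% of cells) and none with IL-2, so it was at least 245-fold higher against a floor of 3 counts per library. It was the only gene compared that had no UMI in 1 of the 2 libraries. The library without cytokine on day 5 also had no UMI, and the other 19 libraries had some. On day 5 it was at 3.12 CPM with 50 IU/mL IL-2, 16.1 with 50 IU/mL IL-2v, 5.15 (low dose) and 23.4 CPM (high dose) under IL-15. On day 3 at 5 IU/mL it was at 10.95 CPM with IL-2v and 0.436 with IL-2, and on day 10 at 31.7 and 10.1 CPM. The highest level of the series, 67.9 CPM, was with 50 IU/mL IL-15 on day 10.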
